A study of Mus musculus with 6 samples.

Results

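The circRNA control probes are 14 oligonucleotides on a commercial mouse circular RNA array (Arraystar, version 2), each spotted 10 times. They were found by name among the 14330 sample probes of the array (those the scanner tables do not class as Agilent's own controls), as every probe whose name begins with AS_circRNA_control. All 14 were found, giving 140 spots per array. They are called probes 1 to 14 here, after the last digits of their names, AS_circRNA_control3000001 to AS_circRNA_control3000014. Of the other sample probes, 14236 were circRNA probes with 1 spot each, 50 were mRNA probes, 15 were custom probes and 15 were negative probes. The array maker's name is the only description of the 14 in the files, so which RNA each of them binds, and its sequence, were not analysed here.

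The study asked which circRNAs differ in the mouse eye during laser-induced choroidal neovascularization (CNV). RNA came from male mice, from the outer coats of the eye: the retinal pigment epithelium (RPE) together with choroid and sclera. The 3 CNV samples were taken 7 days after 25 laser burns were placed around the optic disc of each eye, and the 3 control samples came from age-matched mice that received no laser. Both groups were treated alike after dissection, with RNase R digestion, random-primed amplification and Cy3 labelling. Strain, age and the number of animals behind each sample are not given in the sources used here, so p-values reflect no more than the scatter among these 6 samples, some of which may be technical. The array offers little to check the tissue with: of 29 marker genes of RPE, pigment cells, vessels, sclera, photoreceptors, myeloid cells and nerve, 3 had an mRNA probe (Apoe, Mbp and Tyr). None of these 3 is a defining gene of the RPE. Their mean log2 levels, on the scale explained below, were 3.26 in controls and 4.42 in CNV for Apoe, -3.95 and -3.002 for Mbp, and -4.18 and -3.52 for Tyr, all higher in CNV, though Mbp was well above background on 4 of the 6 arrays and Tyr on 3. The Mbp and Tyr means in both groups lay below those of the tested negative probes, which ran from -2.59 to -2.26 per array. A higher mean in CNV was found in 39 of the 44 tested mRNA probes. The part of these 3 genes in the results on the control probes was not tested.

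A circRNA is made when a downstream splice donor joins an upstream acceptor, which closes the exon or exons between them into a ring without free ends. RNase R, an exonuclease that works from the 3′ end, digests most linear RNA and spares such rings. Arrays of this kind read circRNAs with probes laid across the back-splice junction, the sequence that is absent from the linear transcript of the same gene. Control probes that are spotted many times serve to follow how even and how repeatable the hybridisation was.

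All 14 control probes gave a clear signal on all 6 arrays. Feature Extraction, the scanner software, marked 840 of their 840 spots as well above background and 0 as saturated. The geometric mean intensity of a probe over its spots ran from 36.5 to 3944. Within an array the control probes were brighter than most circRNAs, with a median position at the 93.5th percentile of the tested circRNA probes of the same array and a range from the 52.8th to the 99.6th. Signal levels are given below as log2 of the processed intensity minus the 75th percentile of the sample probes on the same array, so that 0 is the 75th percentile. That percentile ran from 77.2 intensity units on control 1 and 77.8 on CNV 1 to 123 on CNV 2 and 129 on CNV 3, with controls 2 and 3 between. Levels of different probes also depend on how well each oligonucleotide binds, so they are not compared with one another as amounts of RNA.

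The 10 spots of a control probe gave nearly the same value within an array. Over the 14 probes the spots lay between grid rows 1 and 192 of 192 and between columns 2 and 82 of 82. The coefficient of variation over the spots had a median of 3.82% and a range from 1.1% to 8.85% over the 84 combinations of probe and array. On the log2 scale the median SD over spots was 0.06. The SD between the 3 arrays of a group had a median of 0.56 over the 14 probes and both groups, 10.1 times as large. Spots that the software marked as outliers, 47 of the 840, had been left out, which lowers the spread over spots.

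Relative to the 75th percentile, 13 of the 14 control probes were lower on average in CNV than in control eyes, and none passed the test. A difference below 0 was also found in 42.7% of all 13435 probes tested. The median log2 difference was -0.70 over the 14 control probes and 0.05 over all probes tested. A difference of -0.70 or lower was reached by 4.87% of all probes tested. With limma fitted to all 13435 probes and Benjamini-Hochberg adjustment over them, 0 of the 14 were past an adjusted p of 0.05, against 0% of all probes, and 0.762 was the lowest adjusted value among them. An unadjusted p under 0.05 was reached by 4 control probes (2, 3, 6 and 14), all lower in CNV, which is a call made in 2.98% of all probes (5.81% when both directions are counted). With the replicate number as a block, 6 control probes reached it, all lower in CNV, beside 5.8% of all probes, and again none passed the adjusted threshold. In 3 control probes the 3 CNV values all lay below the 3 control values, an arrangement seen in 4.24% of all probes tested. The probes share their arrays, so the 13 of 14 are not 13 independent observations.

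The mRNA, custom and circRNA probes had median differences above 0. The median log2 difference was 0.14 over the 44 tested mRNA probes, of which 5 were lower in CNV, and 0.22 over the 15 custom probes, of which 2 were lower. Among the 13358 tested circRNA probes the median was 0.05, with 5719 lower. With normexp background correction that median was -0.02 and 55.1% of circRNA probes were lower, and without scaling between arrays 26.5% were, while the mRNA and custom medians stayed above 0 under all 7 other scalings and background corrections and 13 of the 14 control probes stayed lower. Among the 4639 circRNA probes whose mean level lay within the range of the 14 control probes, from -0.52 to 4.37, the median was 0.06 and 40.8% were lower. In that range 4.31% had all CNV values below all control values and 6.83% had a difference of -0.70 or lower. Its lower end was set by probe 1 alone. The other control probes had mean levels of 1.07 or more, so the range also takes in circRNA probes dimmer than those.

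Probe 14 had the most negative difference of the 14. Its intensity was 258, 770 and 360 on the 3 controls in turn and 236, 156 and 330 on the 3 CNV arrays. The corresponding log2 levels were 1.74, 2.84 and 1.80 in controls and 1.60, 0.35 and 1.35 in CNV. Relative to the 75th percentile the groups did not overlap, although CNV 1 lay only just under control 1. The log2 difference was -1.03 ± 0.41 (SE, n = 3 per group; limma adjusted p = 0.762), a control mean 2.04-fold that of CNV, with a 95% confidence interval from -1.97 to -0.08. Before that percentile, which was 77.2 on control 1 and 129 on CNV 3, was subtracted, the groups overlapped, with CNV 3 at 330 and control 1 at 258.

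Probe 12 had log2 levels of 2.91, 4.22 and 4.59 in controls and 2.94, 2.60 and 3.29 in CNV. Controls 2 and 3 stood above the other 4 arrays, while control 1 lay within the range of the CNV arrays. Its log2 difference was -0.96 ± 0.43 (SE; limma adjusted p = 0.762), or 1.95-fold. Its intensity was 2011 and 2494 on controls 2 and 3 against 579 to 1259 on the other arrays.

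Probe 6 showed the same arrangement at a higher level. Its log2 levels were 3.80, 4.999 and 5.02 in controls and 3.76, 3.31 and 4.03 in CNV, so that control 1 again fell among the CNV arrays. This amounted to a log2 difference of -0.91 ± 0.37 (SE; limma adjusted p = 0.762; unadjusted p = 0.0397), or 1.88-fold.

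Probe 9 was the brightest of the set, with a mean level of 4.37 over the 6 arrays and a position at the 98.5th percentile of circRNA probes or higher on each array. Its intensity was 1271, 3944 and 3163 on the 3 controls in turn and 1309, 1578 and 2508 on the 3 CNV arrays. The log2 levels were 4.04, 5.19 and 4.94 in controls and 4.07, 3.69 and 4.28 in CNV. As with probes 6 and 12, controls 2 and 3 were high and control 1 was not. The log2 difference was -0.71 ± 0.33 (SE; limma adjusted p = 0.762).

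Probe 1 was the dimmest, with a mean level of -0.52. Its intensity was 46.4, 162 and 80.6 on control arrays and 36.5, 62.7 and 88.8 on CNV arrays. The log2 levels were -0.73, 0.58 and -0.36 in controls and -1.09, -0.97 and -0.54 in CNV. Control 2 stood above the other arrays, and CNV 3 exceeded control 1. Its log2 difference was -0.70 ± 0.35 (SE; limma adjusted p = 0.762). The tested negative probes were the 4 of 15 that passed the filter for signal above background. Their mean levels ran from -2.59 to -2.26 per array, below every value of probe 1.

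Probe 10 was the 1 control probe with a higher mean in CNV. Its log2 levels were 2.72, 1.62 and 1.89 in controls and 3.34, 1.31 and 1.81 in CNV. CNV 1 was the highest array and control 1 the next, so the groups overlapped fully. The log2 difference was 0.07 ± 0.52 (SE; limma adjusted p = 0.979), with a 95% confidence interval from -1.13 to 1.28, which leaves its direction undetermined. It was -0.52 without CNV 1.

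Probe 11 was the steadiest of the set. Its log2 levels were 1.79, 1.81 and 1.70 in controls, an SD of 0.06 that was the smallest of any control probe in either group, and 1.86, 1.04 and 1.51 in CNV. Over the 6 arrays it spanned 0.82 log2 units, where probe 14 spanned 2.49. The log2 difference was -0.30 ± 0.25 (SE; limma adjusted p = 0.827), with the CNV 1 level above all 3 controls.

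Probe 5 had log2 levels of 3.74, 3.13 and 4.35 in controls and 4.13, 2.39 and 3.37 in CNV. Control 3 was the highest array and CNV 2 the lowest, with the others interleaved. Between the groups it differed by -0.44 ± 0.47 (SE; limma adjusted p = 0.860). Without CNV 2 it was 0.01.

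The other 6 control probes, numbers 2, 3, 4, 7, 8 and 13, had intensities from 133 to 1023 and log2 differences from -0.89 to -0.47, with SE from 0.28 to 0.45 and limma adjusted p from 0.762 to 0.8003. Of these, probes 3 and 7 joined probe 14 in having no overlap between the groups, a feature for which they were picked out after their values were seen. Probe 3 had levels of 1.28, 1.48 and 1.55 in controls and 1.05, 0.12 and 0.93 in CNV, a difference of -0.74 ± 0.28 (SE; limma adjusted p = 0.762). Probe 7 had levels of 2.96, 3.06 and 3.31 in controls and 2.75, 1.87 and 2.77 in CNV, a difference of -0.64 ± 0.29 (SE; limma adjusted p = 0.762). In both probes CNV 2 was far below the other 5 arrays and the gap between the groups was small. In intensity both overlapped, with CNV 3 at 246 and control 1 at 188 in probe 3, and at 878 and 599 in probe 7. Probe 4 had CNV 1 at 2.22, level with the 2.23 of control 1, while CNV 2 was at 0.26. Without scaling between arrays it was the 1 control probe with all CNV values below all controls, beside 0.380% of all probes tested. That rested on CNV 1 at an intensity of 362.9 and control 1 at 363.3. Its spots ran from 325 to 394 on CNV 1 and from 348 to 375 on control 1. The gap thus lay within the spread over spots, so the order of these arrays is not resolved.

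The CNV arrays were unlike one another in these probes. CNV 2 was the lowest of the 6 arrays in 13 of the 14 probes and lay below every control in all 14, with a median log2 difference from the control mean of -1.27. It lay below the control mean in 43.5% of all probes tested. The other counts by array given here were not made over all probes, so their background share is not known. CNV 3 lay below the control mean in 14 of 14 probes and below every control in 7, with a median of -0.47. CNV 1 lay below the control mean in 9 probes and below every control in 5, with a median of -0.37. Taken by replicate number, CNV 1 was lower than control 1 in 6 of the 14 probes, with a median difference of 0.03. CNV 2 was lower than control 2 in 14 of 14, with a median of -1.45, and CNV 3 was lower than control 3 in 14 of 14, with a median of -0.55. The highest array was control 2 in 6 probes, control 3 in 5, CNV 1 in 2 and control 1 in 1. The mean level over the 14 was 2.25, 2.73 and 2.60 on the 3 controls in turn and 2.29, 1.33 and 2.04 on the 3 CNV arrays. Controls 2 and 3 were thus highest, control 1 and CNV 1 were alike, and CNV 2 was lowest. The control mean was 2.53 ± 0.25 (SD, n = 3) and the CNV mean 1.89 ± 0.497 (SD, n = 3).

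Single arrays moved these results. Without CNV 2 the median difference over the 14 was -0.44 and 12 of 14 were lower, beside 45.4% of all probes tested. None of the 14 then had an unadjusted p under 0.05 with a lower CNV level, a call made in 1.28% of all probes. Without control 2 the median was -0.67 and there were again 0 such control probes, beside 0.953% of all probes. Leaving out control 3 gave 1 (1.12% of all probes), and leaving out control 1 gave 7 (9.96%). The count was 6 when CNV 1 was left out (3.45%) and 4 when CNV 3 was (2.16%). No control probe passed an adjusted p of 0.05 in any of these limma fits, where the smallest adjusted p was 0.146.

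The place on the slide moved with the groups. Per the file headers all 6 arrays shared 1 scan date, with the 3 controls and CNV 2 in slide row 1 and CNV 1 and CNV 3 in slide row 2. Within slide row 1 the comparison is of CNV 2 alone with the 3 controls, and the median difference was -1.27 with 14 of 14 lower, beside 43.5% of all probes. Of the 14, 7 had an unadjusted p under 0.05, beside 3.66% of all probes in that direction, and 0 passed the adjusted threshold (limma; the lone CNV array is assumed to vary like the controls). Slide row 2 held no control, so adding slide row to the model again leaves CNV 2 as the array that carries the difference. The part of slide position in the difference was not tested.

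The control probes were next set against the mRNA probes of the same array, a ratio in which the scaling between arrays cancels. The geometric mean intensity of the 14 was 368, 715 and 627 on the 3 controls in turn and 382, 309 and 529 on the 3 CNV arrays. That of the 44 tested mRNA probes was 40.9, 46.0 and 44.9 on control arrays and 38.3, 73.0 and 74.9 on CNV arrays. The control probes were therefore 9.01, 15.6 and 13.97 times as bright as the mRNA probes on controls 1 to 3, and 9.95, 4.23 and 7.06 times as bright on the 3 CNV arrays. The groups overlapped, because CNV 1 exceeded control 1. The mean log2 ratio was 3.65 ± 0.42 (SD, n = 3) for control eyes and 2.74 ± 0.62 (SD, n = 3) for CNV eyes, a difference of -0.91. It was -0.58 without CNV 2.

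Both sides of this ratio contributed. Relative to the 75th percentile, the mean of the control probes differed by -0.64 between CNV and control, and the mean of the 44 mRNA probes by 0.27. Relative to the mRNA probes, probe 10 also had a lower mean in CNV, by -0.19, so 14 of 14 differences were below 0, as were those of 77.9% of all probes tested on this ratio. All CNV values lay below all control values in the same 3 probes as before, 3, 7 and 14, an arrangement that 10.6% of all probes tested had on this ratio. The custom probes moved with the mRNA probes: the log2 ratio of mRNA to custom probes was -1.31, -1.22 and -1.17 on control arrays and -1.31, -1.20 and -1.13 on CNV arrays, a range of 0.18, while the ratio of control probes to custom probes ran from 0.88 on CNV 2 to 2.74 on control 2. Some mRNA probes were dim, with a class mean of -1.23 to -0.75 beside -2.59 to -2.26 for the 4 tested negative probes. Whether the mRNA probes read linear RNA left after RNase R was not tested.

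The 14 control probes varied together across the arrays, though not completely. After the mean of each probe was removed, an offset common to all 14 on an array accounted for 59.9% of the variation in the 14 by 6 values. It accounted for 46.6% once the group means were removed as well, and for 29.8% of the variation without CNV 2. The remainder was variation in which the control probes differed from one another. Over the 91 pairs of probes, Pearson correlations across the 6 arrays had a median of 0.73 and ran from -0.46 to 0.99, and 13 exceeded 0.9. With group means removed the median was 0.60. The exact two-sided permutation test over 6 arrays gave 27 pairs an unadjusted p under 0.05 and 0 pairs an adjusted p under 0.05 after Benjamini-Hochberg adjustment over the 91, where the smallest was 0.0948. The points of these correlations share arrays, scaling and, in part, the group difference. The shares, correlations and counts of pairs were not computed for other probes. Whether such co-variation is particular to the control probes is therefore not known.

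A few probes followed each other closely. Probes 6 and 12 had a Pearson r of 0.99 (exact permutation p = 0.00278, adjusted 0.0948) and a Spearman rho of 0.94 (exact p = 0.0167, adjusted 0.190) over the 6 arrays, and r was 0.96 without the 2 arrays farthest from the median of probe 6. Probes 6 and 9 had an r of 0.99 (exact permutation p = 0.00556, adjusted 0.0948) and a rho of 0.89 (exact p = 0.0333, adjusted 0.202), and r was 0.99 without the 2 farthest arrays. Probes 3 and 7 had an r of 0.99 (exact permutation p = 0.00278, adjusted 0.0948) and a rho of 0.94 (exact p = 0.0167, adjusted 0.190), and r was 0.97 without the 2 farthest arrays. These pairs were chosen for their high values. Probe 4 and probe 11 also had an r of 0.98 (exact permutation p = 0.0111, adjusted 0.0948) with a rho of 0.71 (exact p = 0.136, adjusted 0.318), but r fell to 0.57 without the 2 farthest arrays, so that relation rests on those arrays.

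Probe 10 had 4 of the 5 correlations below 0. Its correlations with the other 13 probes ran from -0.46 with probe 1 to 0.73. Those below 0 were with probes 1, 6, 9 and 12, with exact permutation p from 0.386 to 0.710. Without the 2 arrays farthest from the median of the lower-numbered probe, all 4 were positive, from 0.23 to 0.73. The r of -0.46 with probe 1 did not pass (exact permutation p = 0.386, adjusted 0.495; rho = -0.37, exact p = 0.497, adjusted 0.646) and was 0.23 without the 2 arrays farthest from the median of probe 1. The control probes also differed from one another in where control 1 lay. In 9 probes (1, 2, 3, 6, 7, 8, 9, 12 and 14) control 1 lay below both other controls, by -1.50 log2 units from their mean in probe 12, -1.21 in probe 6 and -1.02 in probe 9. In probes 4 and 10 control 1 lay above both, by 0.34 and 0.97, and in probes 5, 11 and 13 it lay between them. CNV 1 lay above both other CNV arrays in 9 probes, by 1.78 from their mean in probe 10, 1.42 in probe 4 and 1.25 in probe 5, and below both in probe 1. These counts were not made over all probes, so their background share is not known. Control 1 and CNV 1 were also the arrays of lowest 75th percentile. The part of array brightness in this pattern was not tested.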

How the data were processed

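The deposited scanner tables give each spot's brightness as a linear intensity that Agilent Feature Extraction 11.0.1.1 had background-subtracted and detrended, per the file headers. The authors' normalized log2 values, deposited as a separate table, were made by a method not given in the sources used here. That table holds 0 of the 14 control probes and was not used further. The scanner tables also carry flags of 0 or 1, deposited as given. Outlier spots (flagged for non-uniformity or against the spots of the same probe) were dropped, and log2 values were averaged over the rest. The array's 75th percentile over sample probes was subtracted. A probe was tested when over 50% of its spots were well above background on at least 3 of 6 arrays. This kept 13435 of 14330 probes, among them all 14 control probes, which were bright in both groups. Groups were compared in 1 fit of limma 3.58.1 in R 4.3.3 (lmFit, eBayes), without covariates. The fit was tested on simulated data with differences of 3 log2 units and independent noise. Whether differences of the size seen here would be found was not tested. With arrays, their number limits the precision.

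The control probes, the lists and the alternatives were chosen with earlier results of these data known. Values on every array are printed for the control probes of lowest and highest level, the 3 most negative differences and the 3 closest to 0 or above it.

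Whether equal replicate numbers pair the samples was checked on the deviation of each array from its group mean over all tested probes. The correlations were 0.41, 0.18 and 0.17 for pairs 1 to 3, all over 0.1. The main fit left the samples unpaired, and an alternative fit used the replicate number as a block. The labels state no pairing, and correlations read from these same values cannot establish one. Control 2 correlated better with CNV 3, at 0.32.

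Alternatives were other scalings, normexp background correction (offset 50), other treatments of spots and of dim probes, a replicate block, a trend in the spread, slide row, and leaving out each array. Added after the data were seen were the signal before multiplicative detrending, leaving out control 1 and CNV 1 together, and array weights. The normexp alternative used the median spot signal, since the scanner tables hold no mean spot signal.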

Additional observations from a re-analysis of the deposited data

How the results depend on the processing

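No control probe passed an adjusted p of 0.05 under the 24 alternatives run (limma), whose smallest adjusted p ran from 0.146 to 1.00 for the single arrays left out and was 0.231 with slide row as a term and 0.174 with array weights. The count at an unadjusted p under 0.05 and lower in CNV, 4 of 14, is given with the share of all probes tested under the same setting: 6 with median centring (3.90%), 5 with cyclic loess (3.77%), 0 without scaling between arrays (0.127%), 2 with normexp and quantile normalization together (3.25%), 9 with slide row as a term (4.60%), 7 with array weights (10.6%) and 10 without control 1 and CNV 1 (9.94%). In the fit with a replicate block it was 6, all lower in CNV, where 5.8% of all probes were, the smallest adjusted p was 0.503, and 0% of all probes passed the adjusted threshold; the block changed no adjusted call. Probes 7 and 12 were the ones it brought under the unadjusted threshold, at p of 0.0378 and 0.0215 (limma). The number of control probes lower in CNV stayed between 12 and 14. The median difference was -1.27 in slide row 1 alone and, since CNV 2 carries both, with slide row in the model, and ran from -0.82 to -0.44 with single arrays left out. Among the other scalings and background corrections it ran from -0.75 to -0.53. Without scaling, the median over all tested probes was 0.23, so that -0.53 lay 0.76 below it. The log2 ratio to mRNA probes differed by -1.56 in slide row 1 alone, by -1.43 without control 1 and CNV 1, by -0.64 with normexp, and from -1.19 to -0.58 with single arrays left out. The share of variation common to the 14 ran from 29.8% to 68.7% with single arrays left out. Of 336 values for single control probes 7 changed sign. The difference of probe 10 (AS_circRNA_control3000010) was -0.77 in slide row 1 alone and with slide row in the model, and -0.20 without control 1 and CNV 1. With single arrays left out it ran from -0.52 to 0.4962, and was below 0 when control 2 (-0.15), control 3 (-0.02) or CNV 1 was the array. That of probe 5 (AS_circRNA_control3000005) ran from -0.86 to 0.013, the latter when CNV 2 was left out. The causes of these changes were not tested. The authors' deposited table could not serve as an alternative because it holds none of these probes. All spots of the 14 were well above background.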
